A study of Danio rerio with 6 samples.

Results

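Cohesin subunit genes were examined in germ cells sorted from juvenile zebrafish wild-type or mutant for foxl2l, a forkhead transcription factor gene expressed in germ cells. The genes were 10 named subunits, taken by name from the 31743 genes of the deposited table, and all 10 were present. Of these, 5 encode subunits used mainly in meiosis (rad21l1, rec8a, rec8b, smc1b and stag3) and 5 encode general subunits (rad21a, rad21b, smc1a, smc3 and stag2b). The animals were of the TL strain at 21 days post fertilization and all carried a foxl2l:egfp reporter, so the sort collected cells by the EGFP of that reporter. EGFP-positive cells of foxl2l-/- animals gave 3 libraries and those of foxl2l+/+ animals gave 3, from about 300 cells of each genotype. The series asks how foxl2l acts on the entry of germ cells into female meiosis. The labels give neither the lesion of the mutant allele nor whether libraries came from separate animals, so the error terms measure the spread between libraries, which may be technical.

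Cohesin is a ring-shaped protein complex that holds sister chromatids together from DNA replication until they separate. Its core is a heterodimer of an SMC1 and an SMC3 protein, closed by a kleisin of the RAD21 or REC8 family and bound by a STAG protein. In meiosis, germ cells replace part of the general set with dedicated paralogs, in mice RAD21L and REC8 for RAD21, SMC1B for SMC1A and STAG3 for STAG1 and STAG2, and these meiotic rings build the chromosome axis on which homologous chromosomes synapse.

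Values of single libraries are given in the order of replicates 1, 2 and 3. Means carry the SD over 3 libraries, and log2 fold changes, of foxl2l-/- over foxl2l+/+, carry their SE. The libraries held 25176401 to 39189535 counts. Of 10 germ cell genes, all but nanos3 and ca15b were abundant in both genotypes. Ddx4, which encodes the Vasa helicase, was at 1779 to 2092 CPM in foxl2l-/- and 2101 to 2672 CPM in foxl2l+/+ cells. CPM are counts scaled to library size, here to totals adjusted by TMM. Nanos3 reached at most 21.4 CPM and ca15b at most 19.0 CPM, with ca15b at 1.2 to 1.8 CPM in foxl2l-/- libraries. Calls are those of the edgeR test set out below for the subunits. That test called 15.7% of all tested genes higher in foxl2l-/- cells and 15.8% lower. Counts of called genes in the germ cell list and in the marker lists that follow are no result about those lists. Of the 10 germ cell genes, 1 was called higher (nanos3, 1.01) and 2 lower (ca15b, -3.20, and dnd1, -0.53, on the log2 scale). The other 7 were not called, among them ddx4 (-0.35 ± 0.16) and dazl (0.46 ± 0.18). Their genotypes did not overlap but lay in opposite directions, with dazl at 1072 to 1431 CPM in foxl2l-/- and 785 to 1054 CPM in foxl2l+/+ libraries. The 23 somatic gonad markers summed to 126 to 161 CPM in foxl2l-/- and 126 to 211 CPM in foxl2l+/+ libraries, with fshr at 0 in 3 libraries and inha at 0 in 1, and of the 20 tested 2 were called higher and 3 lower. The steroidogenic enzyme gene cyp17a1 was higher, at 34.4 to 68.6 CPM in foxl2l-/- against 8.56 to 18.0 CPM in foxl2l+/+ libraries, as was col1a1a (0.93 on the log2 scale). The collagen gene col1a1b was lower, at 24.5 to 37.0 against 51.9 to 106 CPM, as was hsd3b1 (-1.87). The 18 markers of blood, muscle, gut and skin summed to 124 to 133 and 127 to 163 CPM, with fabp1b.1 at 0 in 4 libraries, fabp2 in 3 and krt4 in 1, and of the 16 tested 3 were called higher and 4 lower. These calls went both ways within similar sums, with the muscle gene myl1 at 12.5 against 1.33 CPM, the leukocyte gene ptprc at 23.8 against 4.62 CPM and the skin keratin gene krt4 at 1.76 against 0.151 CPM in foxl2l-/- against foxl2l+/+ cells. The erythroid genes slc4a1a (5.04 against 24.0 CPM) and alas2 (4.97 against 21.5 CPM) were lower. Also lower were the gut marker prss1 (3.48 against 12.8 CPM) and the blood marker hbaa1 (-3.31 on the log2 scale). Hbaa1 was at 50.8 CPM in foxl2l+/+ replicate 1 but at 4.36 and 2.74 CPM in replicates 2 and 3, and its genotypes overlapped. Not called were the muscle genes acta1b, tnnt3b, ckma and mylpfa, the leukocyte genes lcp1, mpx and cd74a, the erythroid gene gata1a and the gut marker ela2. Their log2 fold changes ran from -1.36 (lcp1) to 0.87 (mylpfa). Ddx4, dazl, fshr, inha, fabp1b.1, fabp2, krt4, prss1, hbaa1 and these markers that were not called were named with their values known. The part of these cells in the results was not tested. Replicate 3 of foxl2l-/- stood apart, with correlations of 0.9647 and 0.9726 to the other libraries of its genotype against 0.9833 between those, and results that rest on it are given with and without it. The targeted gene foxl2l was read at 1180, 949 and 806 CPM in foxl2l-/- and at 504, 633 and 743 CPM in foxl2l+/+ libraries. It was called higher in foxl2l-/-, at 0.64 ± 0.20 on the log2 scale (edgeR, adjusted p = 0.0263). These values do not check the labels because the altered part of the gene is not stated.

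In foxl2l-/- cells the meiotic kleisins fell and the general kleisins rose, and at the SMC1 position the general genes rose while smc1b did not pass. Smc3 and the general STAG genes stag1b and stag2b fell. The calls of rec8b, rad21b, smc1a and stag2b did not hold in every alternative analysis. Of the 5 meiotic subunits, 3 fell (rad21l1, rec8a and rec8b), none rose and 2 did not pass (smc1b and stag3). Of the 5 general subunits, 3 rose (rad21a, rad21b and smc1a) and 2 fell (smc3 and stag2b). The test was edgeR's quasi-likelihood test at a Benjamini-Hochberg adjusted p of 0.05 over 23576 genes, of which 31.6% were called, 15.8% lower and 15.7% higher. All 10 subunit genes passed the filter on low counts. The CPM ranges of the genotypes did not overlap for 7 of the 10, lower for 5 and higher for 2, beside 46.7% of tested genes without overlap (22.8% lower and 23.9% higher). The median log2 fold change of foxl2l-/- over foxl2l+/+ was -1.13 over the meiotic subunits, beside 0.048 over all tested genes. Over the general subunits, which went both ways, it was 1.73, the value of smc1a, and over the other 4 general genes (smc1al, stag1a, stag1b and stag2a) it was -0.42. On log2(TPM + 1) the medians were -0.73 for the meiotic and 1.07 for the general subunits, beside 0.19 for all genes. Library totals in place of TMM scaling moved the median of all genes to 0.25 and the split of all calls from 49.8% to 64.2% higher, while the counts of called subunits stayed at 3 lower among the meiotic and 3 higher and 2 lower among the general subunits. Without foxl2l-/- replicate 3, all 5 meiotic subunits were called lower, where 15.5% of 24230 genes were, and the general subunits gave 2 higher and 2 lower. Without foxl2l-/- replicate 2, 1 general subunit was called higher and 1 lower, where 2797 of 24131 genes were higher and 2600 lower. Without foxl2l+/+ replicate 2, 2 were higher and 1 lower, where 2708 of 24259 genes were higher and 2910 lower. Calls over all genes thus also fell, from 3710 higher and 3733 lower.

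**Figure D1:**
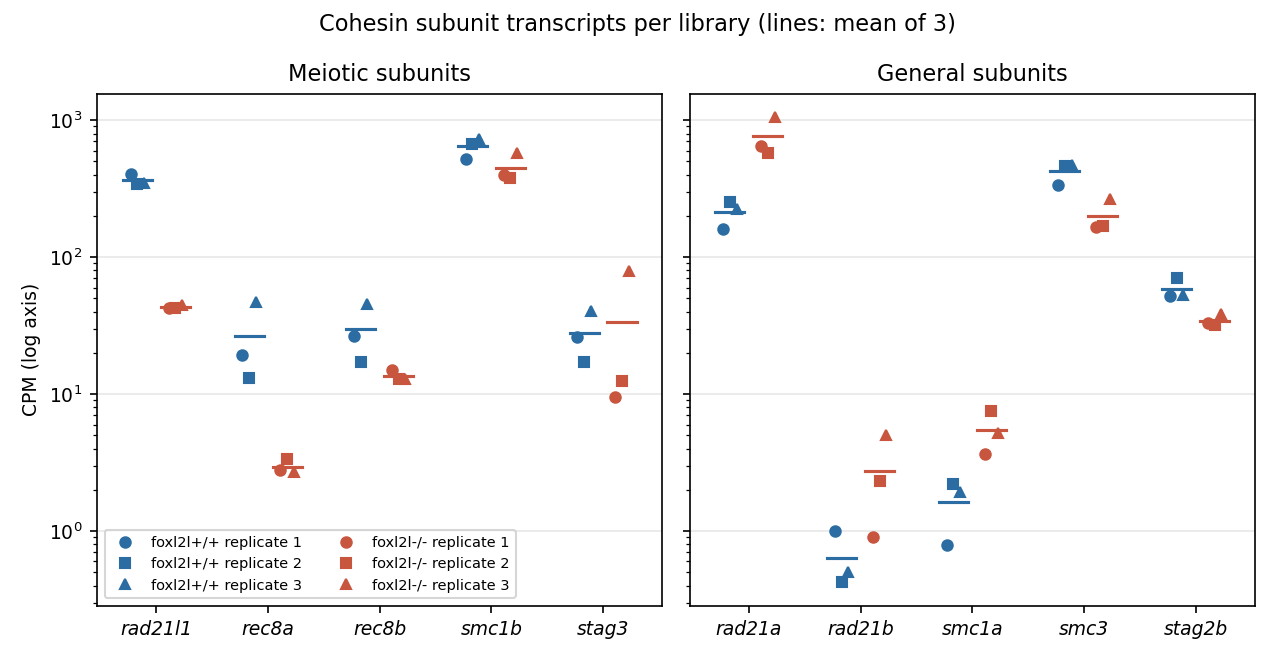
Levels of the 10 cohesin subunit transcripts in CPM (log axis) in each library, with blue for foxl2l+/+, red for foxl2l-/-, a marker shape for each replicate number and a line at the mean of 3 libraries. The genotype means are farthest apart for rad21l1 and rec8a, and foxl2l-/- replicate 3 lies far above its group for stag3, at 79.4 CPM against 9.54 and 12.4.

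Among the kleisins, rad21l1 differed with the smallest error. This gene (ENSDARG00000022493, GRCz11 chromosome 8, 49117506 to 49140645, forward strand) encodes the meiosis-specific kleisin RAD21L, which in mice acts early in prophase in the pairing of homologs. Its level was 408, 343 and 347 CPM in foxl2l+/+ libraries and 42.7, 42.9 and 44.7 CPM in foxl2l-/- libraries. The foxl2l-/- libraries lay within a narrow band far below all foxl2l+/+ libraries. The mean was 8.43-fold lower in foxl2l-/- cells, at 43.4 ± 1.12 against 366 ± 36.2 CPM (SD, n = 3 libraries each). The log2 fold change, -3.08 ± 0.17, had adjusted p = 4.87e-07 and ranged from -3.14 to -2.78 over 15 alternative analyses, all of which called it.

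The rec8 paralogs encode the kleisin that, in yeast and mammals, keeps sister chromatids joined through the first meiotic division. For rec8a (chromosome 2, 6212205 to 6232517, reverse strand) the level was 19.4, 13.1 and 47.0 CPM in foxl2l+/+ and 2.80, 3.34 and 2.72 CPM in foxl2l-/- libraries. The genotypes did not overlap, although foxl2l+/+ replicate 3 was far above the other libraries of its genotype. The log2 fold change was -3.16 ± 0.44 (adjusted p = 0.000246), and without foxl2l+/+ replicate 3 it was -2.44 and still called.

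Expression of rec8b (chromosome 24, 12690163 to 12734583, forward strand) also fell. It was 26.4, 17.1 and 45.7 CPM in foxl2l+/+ and 14.9, 12.8 and 12.8 CPM in foxl2l-/- libraries, with the lowest foxl2l+/+ library close to the highest foxl2l-/- library. The log2 fold change was -1.13 ± 0.33 (adjusted p = 0.0193). Leaving out foxl2l+/+ replicate 3 ended the call, at -0.67 and adjusted p = 0.133, as did leaving out foxl2l-/- replicate 2, at -1.06 and 0.0714 (0.00332 to 0.133 over all alternatives). Per gene length, on the TPM scale, the genotypes overlapped for rec8b, with 11.0 TPM in foxl2l+/+ replicate 2 and 10.4 to 11.3 TPM in foxl2l-/- libraries, and limma-trend on log2(TPM + 1) did not call it (-0.73, adjusted p = 0.114).

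The general kleisin rad21a moved in the opposite direction. Rad21a (ENSDARG00000006092, chromosome 16, 48409066 to 48430272, reverse strand) encodes a zebrafish co-orthologue of RAD21, the kleisin of mitotic cohesin. Its level was 161, 255 and 223 CPM in foxl2l+/+ and 652, 579 and 1059.7 CPM in foxl2l-/- libraries. The genotypes did not overlap, and foxl2l-/- replicate 3 was the highest. The mean was 3.58-fold higher in foxl2l-/- cells, at 763 ± 259 against 213 ± 48.1 CPM (SD, n = 3), and the log2 fold change was 1.84 ± 0.25 (adjusted p = 0.00021). Without foxl2l-/- replicate 3 it was 1.53 and still called.

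Its paralog rad21b (chromosome 19, 44068250 to 44091405, reverse strand) was scarce, with 12 to 35 counts in foxl2l+/+ and 36 to 195 counts in foxl2l-/- libraries. The levels were 0.994, 0.422 and 0.506 CPM in foxl2l+/+ and 0.899, 2.34 and 5.0 CPM in foxl2l-/- libraries, so that foxl2l-/- replicate 1 fell inside the foxl2l+/+ range. The log2 fold change of 2.09 ± 0.68 passed the test (adjusted p = 0.0333). Any of 4 libraries, when left out, ended the call. The log2 fold change was 1.33 without foxl2l-/- replicate 3 (adjusted p = 0.181), 2.24 without foxl2l-/- replicate 2 (0.0581), 1.84 without foxl2l+/+ replicate 2 (0.111) and 1.99 without foxl2l+/+ replicate 3 (0.0955). Limma-voom did not call it either (1.73, 0.0599), and adjusted p spanned 0.00893 to 0.181 across the alternatives.

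On the per-length TPM scale, the make-up of the kleisin transcripts differed between the genotypes while their total did not separate. The meiotic kleisins rad21l1, rec8a and rec8b made up 79.5%, 66.8% and 73.7% of summed kleisin TPM in foxl2l+/+ libraries and 11.4%, 12.3% and 7.25% in foxl2l-/- libraries. Rad21l1 alone held 62.1 ± 7.42% of it in foxl2l+/+ and 7.31 ± 1.81% in foxl2l-/- cells, and rad21a held 26.6 ± 6.40% and 89.3 ± 2.58%. The ratio of rad21l1 to rad21a TPM was 3.45, 1.82 and 2.12 in foxl2l+/+ and 0.0890, 0.101 and 0.0573 in foxl2l-/- libraries. In every foxl2l+/+ library rad21l1 thus exceeded rad21a, and in every foxl2l-/- library rad21a exceeded rad21l1. Summed kleisin TPM was 416, 369 and 439.9 in foxl2l+/+ and 411, 402 and 753 in foxl2l-/- libraries, so that foxl2l-/- replicates 1 and 2 lay inside the foxl2l+/+ range and replicate 3 above it. TPM carry no TMM adjustment. Its factors, 1.0428 to 1.1022 in foxl2l-/- and 0.9073 to 0.9466 in foxl2l+/+ libraries, would lower the former sums and raise the latter. The place of replicates 1 and 2 inside that range thus depends on the scaling. The kleisin shares combine genes already tested and are given as descriptions. In sorted bulk cells, fewer cells that express a gene and less RNA per cell cannot be told apart.

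**Figure D2:**
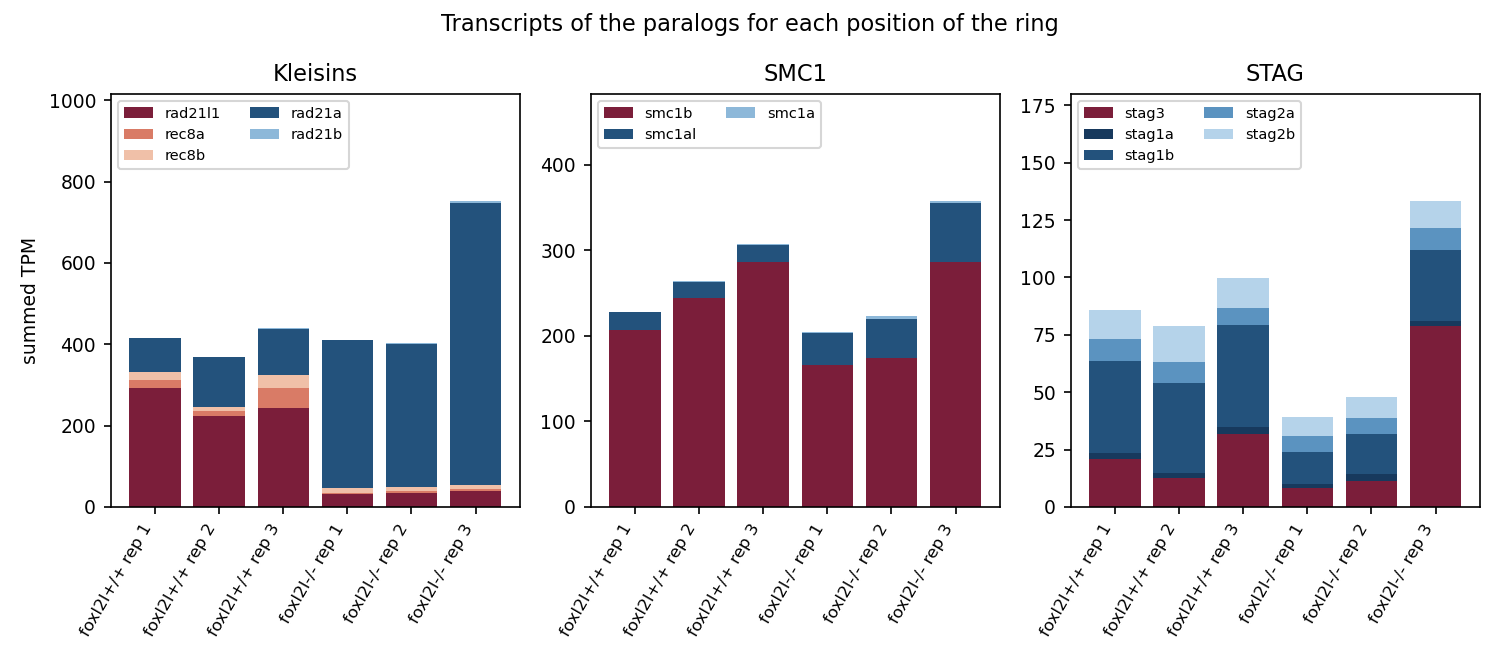
Summed TPM (deposited values, per gene length) of the kleisin, SMC1 and STAG paralogs in each library, stacked by gene, with the 3 foxl2l+/+ libraries on the left of each panel and the 3 foxl2l-/- libraries on the right. Rad21a takes up most of the kleisin bar in each foxl2l-/- library (89.3% on average) and rad21l1 in each foxl2l+/+ library (62.1%), whereas smc1b leads the SMC1 bar in both genotypes.

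At the SMC1 position the meiotic paralog remained the main transcript in both genotypes. Smc1b (ENSDARG00000014402, chromosome 25, 16554817 to 16581233, reverse strand) encodes the SMC1 protein of meiotic cohesin, which in mice is needed for chromosome axis length and telomere integrity. Its level was 520.5, 676 and 735 CPM in foxl2l+/+ and 395, 381 and 578 CPM in foxl2l-/- libraries. Replicate 3 of foxl2l-/- lay above replicate 1 of foxl2l+/+, and the log2 fold change of -0.51 ± 0.20 did not pass (adjusted p = 0.0758). It did pass at -0.69 in limma-voom, at -0.73 without foxl2l-/- replicate 3 (adjusted p = 0.0103) and at -0.66 without foxl2l+/+ replicate 1 (0.0497, within a span of 0.00285 to 0.374 over all alternatives).

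The general SMC1 paralogs were lower in abundance and rose. Smc1a (ENSDARG00000055754, chromosome 23, 28693278 to 28713982, forward strand) was at 0.795, 2.19 and 1.94 CPM in foxl2l+/+ and 3.65, 7.53 and 5.16 CPM in foxl2l-/- libraries. The genotypes did not overlap, and the log2 fold change was 1.73 ± 0.49 (adjusted p = 0.0172). Leaving out foxl2l-/- replicate 2 gave 1.46 (adjusted p = 0.0849) and leaving out foxl2l+/+ replicate 1 gave 1.38 (0.0577), neither called, and adjusted p spanned 0.00171 to 0.0849. A second general gene, smc1al (chromosome 23, 12840080 to 12897815, forward strand), for which RefSeq gives smc1a as a synonym, was 12.0 to 60.9 times as abundant as smc1a per gene length. It was at 72.9, 71.8 and 69.6 CPM in foxl2l+/+ and 121, 136 and 192 CPM in foxl2l-/- libraries. All foxl2l-/- libraries were higher, with a log2 fold change of 1.06 ± 0.20 (adjusted p = 0.0018), and every alternative called it. Of the SMC1 TPM summed over smc1b, smc1a and smc1al, smc1b took 92.1 ± 1.39% in foxl2l+/+ and 79.6 ± 1.53% in foxl2l-/- cells. With smc1a as the only general gene, these shares were 99.7 ± 0.0955% and 98.6 ± 0.658%.

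Smc3 (ENSDARG00000019000, chromosome 22, 29858535 to 29906764, reverse strand), whose product is shared by mitotic and meiotic rings, fell. It was at 339, 466 and 470.2 CPM in foxl2l+/+ and 166, 170.3 and 267 CPM in foxl2l-/- libraries. No foxl2l-/- library reached the foxl2l+/+ range, and the mean was 2.11-fold lower, with a log2 fold change of -1.08 ± 0.22 (adjusted p = 0.00295). All alternatives called it, with log2 fold changes of -1.33 to -0.84. Total SMC1 TPM did not separate the genotypes (228 to 308 in foxl2l+/+ and 205 to 358 in foxl2l-/- libraries). The ratio of summed SMC1 to smc3 TPM was 1.87 ± 0.0785 in foxl2l+/+ and 3.22 ± 0.127 in foxl2l-/- libraries. The ratio of summed kleisin to smc3 TPM was 2.90 ± 0.535 and 6.33 ± 0.416. Neither ratio overlapped between the genotypes, and foxl2l-/- replicate 3 (3.08 and 6.47) lay with its group. Both ratios combine genes already tested, with the fall of smc3 in each, and are given as descriptions.

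STAG proteins bind the kleisin and help load the ring. Stag3 (ENSDARG00000104388, chromosome 14, 80685 to 84967, forward strand) encodes the meiotic member. It was at 26.2, 17.3 and 40.5 CPM in foxl2l+/+ and 9.54, 12.4 and 79.4 CPM in foxl2l-/- libraries. Replicates 1 and 2 of foxl2l-/- lay below and replicate 3 above all foxl2l+/+ libraries, and the log2 fold change of 0.27 ± 0.63 did not pass (adjusted p = 0.777). Without foxl2l-/- replicate 3 the sign turned and stag3 was called lower, at -1.34 (adjusted p = 0.0153, where the alternatives spanned 0.0153 to 0.991). The annotated stag3 region spans 4283 bases and overlaps the gene CABZ01086812.1 on the opposite strand over 2470 bases. Reads of these genes cannot be told apart there in libraries that do not record strand. The neighbour was counted at a mean of 1.34 CPM against 30.9 for stag3, with a log2 fold change of -2.28. Its low count cannot show how reads of the shared bases were assigned, because the counter is not named.

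Of the general STAG genes, stag2b and stag1b fell. Stag2b (chromosome 14, 28486213 to 28527422, forward strand) was at 52.4, 70.9 and 53.2 CPM in foxl2l+/+ and 32.9, 32.0 and 38.5 CPM in foxl2l-/- libraries, without overlap. Its log2 fold change was -0.77 ± 0.21 (adjusted p = 0.0131). The call was lost on leaving out foxl2l-/- replicate 2 (adjusted p = 0.0782) or foxl2l+/+ replicate 2 (0.0645), and on the TPM scale (-0.47 on log2(TPM + 1), adjusted p = 0.15 by limma-trend), with a span of 0.00271 to 0.15.

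Stag1b was at 121, 132 and 138 CPM in foxl2l+/+ and 40.8, 46.5 and 75.5 CPM in foxl2l-/- libraries, again without overlap. It fell by 1.26 ± 0.23 on the log2 scale (adjusted p = 0.00151), and every alternative called it. Stag1a (-0.41 ± 0.30) and stag2a (-0.43 ± 0.23), named with their values known, did not pass. Per gene length, stag1b was the leading STAG transcript in foxl2l+/+ libraries, with 47.1 ± 2.65% of summed STAG TPM, beside 24.0 ± 8.02% for stag3. In foxl2l-/- libraries the stag3 share was 20.5%, 23.9% and 59.1%, and that of stag1b was 36.3%, 36.9% and 23.2%. The annotated stag3 region (4283 bases) is short beside those of the other STAG genes (29693 to 89201 bases), and a short gene length raises TPM. On counts the stag3 share was 10.8% in foxl2l+/+ and 17.9% in foxl2l-/- cells. Whether the annotated stag3 gene is complete was not tested.

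**Figure D3:**
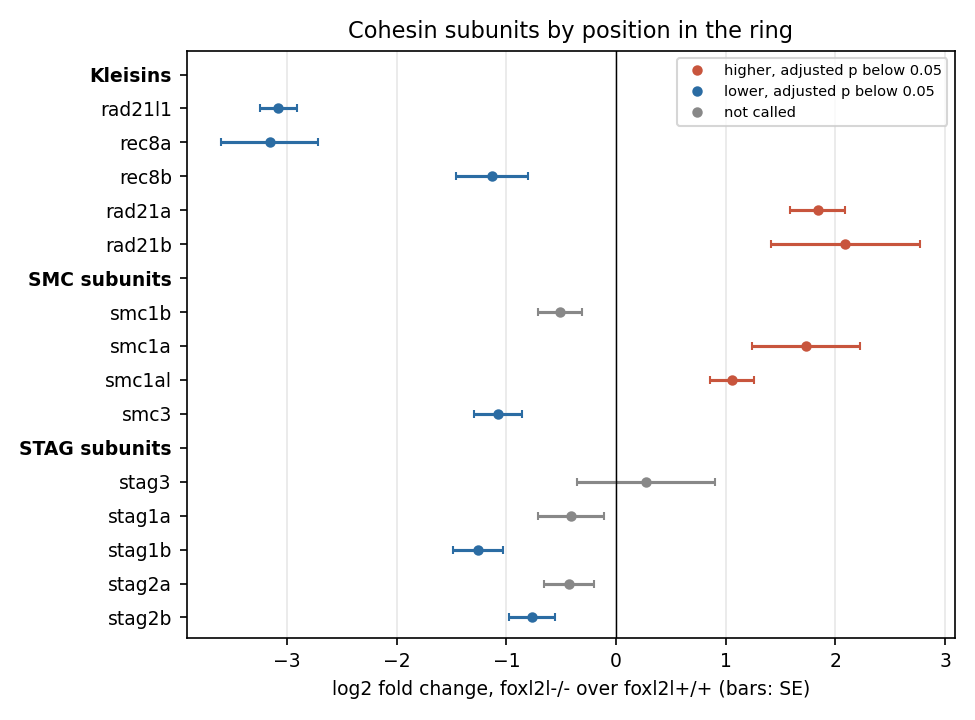
Log2 fold changes of foxl2l-/- over foxl2l+/+ for the 10 subunits and their paralogs smc1al, stag1a, stag1b and stag2a, grouped by position in the ring, with SE bars and colour for the call at an adjusted p of 0.05. The kleisins split by class, from -3.16 for rec8a to 2.09 for rad21b, whereas smc3, stag1b and stag2b lie below 0 with the meiotic kleisins.

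The order of levels per gene length changed with genotype. In foxl2l+/+ cells rad21l1 (253 ± 35.1 TPM) and smc1b (246 ± 40.2 TPM) led and their ranges overlapped. They were followed by smc3 (143 ± 22.2) and rad21a (107), which also overlapped. Rec8a, stag3, rec8b and stag2b came next at means of 26.8 to 13.8 TPM, each overlapping its neighbour, and smc1a and rad21b were lowest at 0.685 and 0.459 TPM. The place of stag3 depends on the short gene length annotated for it. In foxl2l-/- cells rad21a led at 469 ± 195 TPM, followed by smc1b at 209 ± 66.8, smc3 at 82.2 ± 29.7 and rad21l1 at 35.8 ± 3.73 TPM, and the ranges of successive genes among these 4 did not overlap. In foxl2l+/+ cells rad21l1 exceeded smc1b in replicate 1 (292 against 207 TPM), whereas smc1b exceeded rad21l1 in replicates 2 (244 against 223 TPM) and 3 (287 against 244 TPM).

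Variation among libraries of a genotype was uneven across the subunits. Replicate 3 of foxl2l-/- was the highest of its genotype for 7 of the 10 subunits, and replicate 3 of foxl2l+/+ for 5. The matching share over all genes was not computed, so these counts are no result about the subunits. Within foxl2l+/+ the levels of rec8a, rec8b and stag3 were each highest in replicate 3 and lowest in replicate 2, whereas rad21l1 was highest in replicate 1. The plot of left-out libraries shows which calls were lost when a library was left out. Over all genes, 2708 to 3302 were then called higher and 2600 to 3753 lower, against 3710 and 3733 with all 6 libraries. A lost call alone thus does not show that a result rests on that library. The calls of rad21l1, rec8a, rad21a and smc3 remained in all 6 cases.

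**Figure D4:**
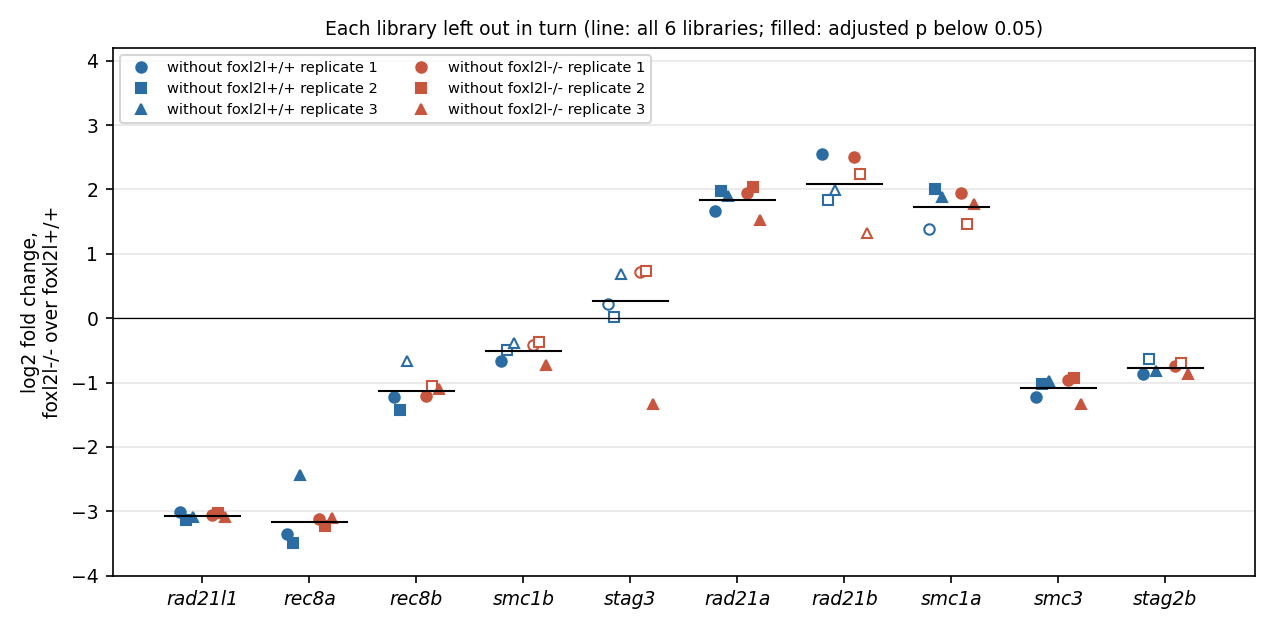
Log2 fold change of foxl2l-/- over foxl2l+/+ for each subunit with each library left out in turn (blue for a foxl2l+/+, red for a foxl2l-/- library), beside a line for all 6 libraries, with filled markers for an adjusted p below 0.05. Rad21l1 stays between -3.14 and -3.01, while stag3 moves from 0.27 to -1.34 when foxl2l-/- replicate 3 is left out.

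Among genes that load, protect and remove cohesin, most did not pass. Of 24 such genes listed, 21 were in the table and tested, and 4 fell, 1 rose and 16 did not pass, with a median log2 fold change of -0.37. Of all tested genes 31.6% were called, 15.8% lower and 15.7% higher, and the count is no result about the list. Espl1, which encodes separase, the protease that cuts the kleisin at anaphase, fell by 1.04 ± 0.23 (log2), with a mean of 33.9 CPM in foxl2l-/- against 69.7 CPM in foxl2l+/+ cells, and of the 5 called genes it was the one that every alternative called. Pttg1, which encodes the separase inhibitor securin, fell by 0.69 ± 0.20, from 128 to 79.3 CPM. The cohesin loader gene nipbla fell by 0.80 ± 0.20, whereas its paralog nipblb (-0.12 ± 0.22) did not pass. The fourth to fall was esco2, a cohesin acetyltransferase gene named after its values were seen, at -0.57 ± 0.20 (adjusted p = 0.0464). Plk1, a mitotic kinase that promotes cohesin removal, rose by 0.67 ± 0.21, from 268 to 426 CPM. The release factor genes wapla (0.26 ± 0.36) and waplb (-0.60 ± 0.26) and the shugoshin genes sgo1 (-0.40 ± 0.29) and sgo2 (-0.37 ± 0.21), whose products protect centromeric cohesin, did not pass. These 4 genes and nipblb were also named with their values known.

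These counts depended on scaling and on single libraries, as did the calls over all tested genes. Of 23576 genes, the main fit called 3710 higher and 3733 lower, and library totals 4882 and 2723. On log2(TPM + 1) 5326 were higher and 2652 lower, and in limma-voom 4502 and 4719. Without foxl2l-/- replicate 3, 3302 of 24230 genes were higher and 3753 lower. With any library left out, 2708 to 3302 genes were higher and 2600 to 3753 lower. Under library totals the 21 genes gave 2 higher and 2 lower (median -0.17), and on log2(TPM + 1) they gave 3 higher and 1 lower (median -0.09). Leaving out foxl2l-/- replicate 3 gave 8 lower and 1 higher, as did limma-voom. Without foxl2l+/+ replicate 1 the counts were 6 lower and 1 higher. Leaving out foxl2l-/- replicate 2 gave 2 lower and 1 higher. Without foxl2l-/- replicate 1, foxl2l+/+ replicate 2 or foxl2l+/+ replicate 3, 3, 1 and 2 fell and 0 rose, and the adjusted p of plk1 was 0.0533, 0.075 and 0.095 (0.00575 to 0.095 over all alternatives). Nipbla was not called without foxl2l+/+ replicate 2 (adjusted p = 0.0538, span 0.00319 to 0.12) or on log2(TPM + 1). Pttg1 was not called without foxl2l-/- replicate 2, foxl2l+/+ replicate 2 or foxl2l+/+ replicate 3 (adjusted p = 0.0909, 0.0777 and 0.079, span 0.00475 to 0.0909), under library totals or on log2(TPM + 1). Esco2 was not called without foxl2l-/- replicates 1 or 2 or foxl2l+/+ replicates 2 or 3 (adjusted p = 0.0562, 0.207, 0.073 and 0.251, span 0.00506 to 0.271), under library totals (0.17), in DESeq2 (0.0514), without the low-count filter (0.0552) or on log2(TPM + 1) (0.268), and 6 of 15 alternatives called it.

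Other SMC complexes, which compact or repair chromosomes, gave 4 higher and 1 lower of 14 genes tested, with a median of 0.19. Of all tested genes, 15.7% were higher and 15.8% lower. The count rests on 14 genes, changed when single libraries were left out, and is no result about the list. The condensin I genes ncaph and ncapg, which encode its kleisin and a HEAT-repeat subunit, rose and were called in every alternative, with means of 160.3 ± 19.3 against 75.0 ± 19.7 CPM for ncaph and 304 ± 52.8 against 176 ± 9.91 CPM for ncapg in foxl2l-/- against foxl2l+/+ cells. The condensin II kleisin gene ncaph2 fell by 0.68 ± 0.18, a call lost under library totals (-0.48, adjusted p = 0.0527), on log2(TPM + 1) (-0.41, 0.133) and on leaving out foxl2l-/- replicate 2 (0.0742) or foxl2l+/+ replicate 3 (0.0595), with a span of 0.00242 to 0.133. Smc5, a core gene of the SMC5/6 complex, rose by 1.18 ± 0.29 with 190.1, 238 and 469 CPM in foxl2l-/- libraries against 112 to 163 CPM in foxl2l+/+ libraries. It was 0.70 without foxl2l-/- replicate 3, still called, and 1.06 without foxl2l+/+ replicate 1, not called (adjusted p = 0.0506, span 0.00168 to 0.0506). The fourth to rise, nsmce2, was named after its values were seen and had a log2 fold change of 0.49 ± 0.17 (adjusted p = 0.0482). Of the 6 libraries, only foxl2l-/- replicate 3 could be left out with its call kept, and adjusted p without each of the others was 0.0737 to 0.164 (span 0.00206 to 0.164). Without foxl2l+/+ replicate 1, 2 of the 14 rose, without foxl2l-/- replicate 3, 4 rose and 2 fell, and without foxl2l-/- replicate 2 or foxl2l+/+ replicate 3, 3 rose and 0 fell.

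**Figure D5:**
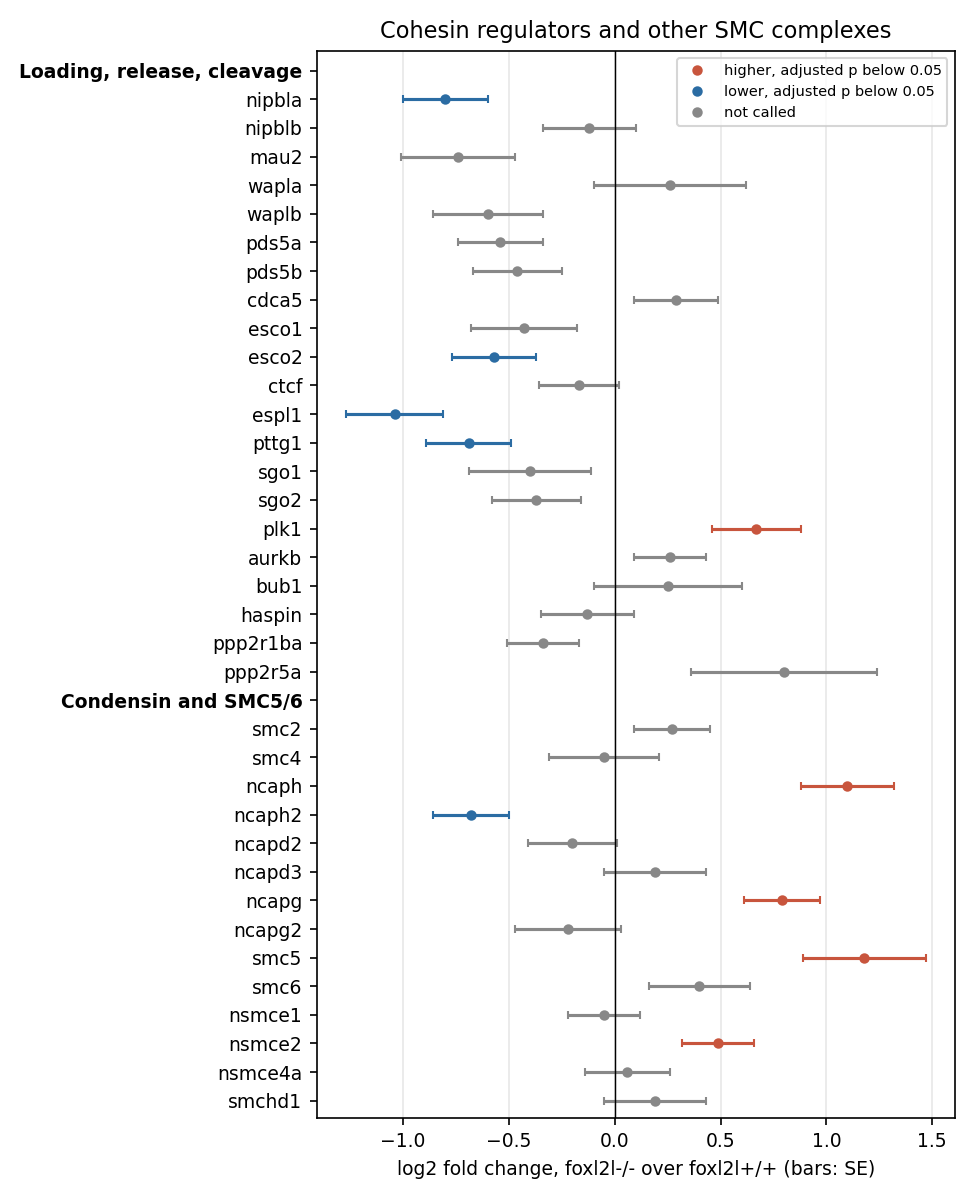
Log2 fold changes of foxl2l-/- over foxl2l+/+ with SE bars for 21 genes of cohesin loading, release and cleavage and 14 genes of condensin, SMC5/6 and related SMC proteins, coloured by the call at an adjusted p of 0.05. All values lie between -1.04 (espl1) and 1.18 (smc5), a narrower span than that of the kleisins.

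The synaptonemal complex and HORMA-domain axis genes, which assemble on meiotic cohesin, included changes of the size seen for rad21l1. Of the 6 in the table under the listed names, 4 fell and 2 did not pass, beside 15.8% of all tested genes called lower, with a median log2 fold change of -1.83. Sycp1, the transverse filament gene, fell by 3.34 ± 0.21 and the axis gene sycp3 fell by 2.83 ± 0.21 on the log2 scale, while sycp2 fell by 1.69 ± 0.20 and the central element gene syce2 fell by 1.97 ± 0.25. The axis gene hormad1 (-0.23 ± 0.18) and its remodeller gene trip13 (-0.07 ± 0.18) did not pass, and both were named with their values known.

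The genes whose profile over the 6 libraries was most like that of rad21l1 were sult1st9, rbpms2b, tmem144b, degs2 and larp6b, with Pearson correlations of log2(CPM + 1) of 0.9997, 0.9993, 0.9992, 0.9990 and 0.9989. These coefficients rest mainly on the difference between genotypes, which the 6 libraries share, and are given as a description. The log2 fold changes of the 5 genes were -7.77, -4.37, -5.05, -3.61 and -6.24, each larger in size than that of rad21l1.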

How the data were processed

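Transcripts were measured by RNA sequencing (SMART-Seq HT cDNA and Nextera XT libraries, which do not record strand) in 6 libraries. The authors deposited raw counts per gene, and TPM values that they scaled by gene length and depth, per the file headers. The log2 fold changes and FDR p-values that the authors also deposited come without a stated model and are not used in the results. Per the submitters' processing notes, the build was GRCz11 and bcl2fastq was used. For the aligner, counter, annotation and treatment of multiply matching reads, names were not given in the sources used here, so values of paralogs that share sequence (rad21a and rad21b, rec8a and rec8b, smc1a and smc1al, the STAG genes) are uncertain to that extent. Another 12 columns of RPKM and CPM values were not used.

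Counts of genes passing filterByExpr (23576) were scaled by TMM and tested with edgeR 4.0.16 in R 4.3.3 (glmQLFit, glmQLFTest) without covariates, with Benjamini-Hochberg adjustment over all tested genes at 0.05. SE is the size of the log2 fold change divided by the square root of F. The steps were also run on simulated counts with few changed genes, balanced in direction, so that run does not check the scaling in data like these. Libraries of a genotype differed from each other by more than counting noise (chi-square per degree of freedom 33.2 to 120.9). Amplified reads are not independent molecules, so counts overstate precision. Shares and ratios used the deposited TPM. The alternatives were RLE factors, library totals, DESeq2 1.42.0, limma 3.58.1 (voom with quality weights, and trend on log2(TPM + 1) and log2(TPM + 0.1)), no filter, a minimum of 10 counts in 3 libraries, leaving out each library, and a block for replicate number.

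The subunits and gene lists were chosen with earlier results of these data known. Of 118 listed genes, 2 (sgo2 and haspin) were matched by identifier and 12 were not found under the listed names. Named genes are the 10 subunits, the called genes with the 4 smallest p in each list, and the 5 genes most correlated with rad21l1 (mean of at least 10 CPM, no clone name, in no list); others are marked where named. Sequences and promoters were not analysed here.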

Additional observations from a re-analysis of the deposited data

How the results depend on the processing

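Over the 15 alternatives, the calls of rad21l1, rec8a, rad21a and smc3 held in direction and threshold, as did those of smc1al and stag1b. Of the 150 pairs of subunit and alternative, 125 gave the same direction and side of the threshold, 16 lost a call, 4 gained a call in the same direction (all for smc1b) and 5 turned the sign (all for stag3, of which the one without foxl2l-/- replicate 3 also passed the threshold). The sign of stag3 turned under voom (-0.95), on log2(TPM + 1) (-0.04) and log2(TPM + 0.1) (-0.06), with the replicate block (-0.32) and without foxl2l-/- replicate 3 (-1.34), and the cause was not tested. With each library left out in turn, stag3 ranged from -1.34 to 0.73. With a library left out, 2 to 5 meiotic subunits were called lower, 1 to 3 general subunits higher and 1 to 2 lower, and genes called overall were 2708 to 3302 higher and 2600 to 3753 lower. On either TPM scale 1 general subunit was lower, since stag2b lost its call. Counts in place of TPM gave a meiotic kleisin share of 66.5% in foxl2l+/+ and 7.69% in foxl2l-/- cells and a stag3 share of 10.8% and 17.9%, because counts are not scaled by length. Counting smc1al with smc1a, chosen after seeing the data, gave smc1b shares of 79.6% in foxl2l-/- and 92.1% in foxl2l+/+ cells. Same-numbered libraries correlated at -0.022, 0.081 and 0.051 in their deviations from the group means, and not every library correlated best with its own number. With 3 libraries per genotype, these values cannot settle whether replicate numbers pair the samples. With the number as a block, 3529 genes were higher and 3670 lower, smc1b was called (-0.52) and rad21b was not (1.90). Counts were low for rad21b and smc1a, at 12 to 318 per library, and for rec8a in foxl2l-/- libraries, at 106 to 141. How far depth limits these genes was not tested.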
